A study of Mus musculus with 23 samples.

Results

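The BCL2 family of apoptosis regulators was followed across 5 plasticizer treatments of TM4 cells through 10 genes of the mitochondrial branch of cell death. They were the antiapoptotic genes Bcl2, Bcl2l1 and Mcl1, the pore-forming effectors Bax and Bak1, and the BH3-only genes Bid, Bad, Bcl2l11, Bmf and Pmaip1. The genes were chosen by name, and every non-control probe whose RefSeq transcript belonged to one of them was used. This gave 13 of the 55681 non-control probes of the array and 10 of its 20145 named genes. Bcl2l1, Mcl1 and Bad had 2 probes each, and the level given for a gene is that of its brighter probe.

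TM4 is an immortalized mouse Sertoli cell line derived from immature testis, and all samples came from this 1 line. Cultures were exposed for 48 hr to 100 μM of MEHP (mono(2-ethylhexyl) phthalate, the active metabolite of the phthalate plasticizer DEHP), DINCH (diisononyl cyclohexane-1,2-dicarboxylate, a commercial plasticizer), DOM (dioctyl maleate), BDB (1,4-butanediol dibenzoate) or DOS (dioctyl succinate). Every treatment contained 1% DMSO, and the control cultures received this vehicle alone. There were 4 biological replicates for each group and 3 for DOS, each on its own 1-colour Agilent mouse array, so 23 arrays in all.

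Proteins of the BCL2 family decide whether the outer membrane of the mitochondrion stays intact. BAX and BAK form pores in this membrane through which cytochrome c escapes, and cytochrome c then assembles the apoptosome that activates the caspases. BCL2, BCL-XL (the product of Bcl2l1) and MCL1 hold BAX and BAK in check, while BH3-only proteins respond to particular stresses, occupy the antiapoptotic proteins or activate the effectors directly. Sertoli cells are the nurse cells of the seminiferous tubule. Many of these proteins are controlled by cleavage, phosphorylation and degradation, which an mRNA array does not measure.

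Bmf was the member whose mRNA differed most between treatments, and Bid and Bcl2 were the others with a called difference between any groups. Their promoter sequences, from RefSeq on GRCm38.p6, are therefore shown. Each window holds 250 bases before and 50 bases after an annotated transcription start, read 5′ to 3′ along the gene, and all 5 windows lie on the minus strand. Capitals mark every match on either strand to a GC box (GGGCGG, the core bound by SP1 family factors), to a FOXO motif (GTAAACA) or to an antioxidant response element core (TGACNNNGC), and overlapping matches were allowed.
Bmf, chr2:118544538-118544837: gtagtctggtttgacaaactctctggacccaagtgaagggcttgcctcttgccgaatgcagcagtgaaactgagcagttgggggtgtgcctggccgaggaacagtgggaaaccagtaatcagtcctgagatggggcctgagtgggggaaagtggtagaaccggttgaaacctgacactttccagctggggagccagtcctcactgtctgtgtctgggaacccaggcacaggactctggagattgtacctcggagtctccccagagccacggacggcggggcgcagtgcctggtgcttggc
Bmf, chr2:118547550-118547849: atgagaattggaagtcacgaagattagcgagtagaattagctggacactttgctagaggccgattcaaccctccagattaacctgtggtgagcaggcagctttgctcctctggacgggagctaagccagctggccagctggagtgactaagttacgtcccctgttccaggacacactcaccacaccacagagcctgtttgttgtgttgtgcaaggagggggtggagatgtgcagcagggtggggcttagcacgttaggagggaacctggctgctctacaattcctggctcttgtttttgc
Bmf, chr2:118549637-118549936: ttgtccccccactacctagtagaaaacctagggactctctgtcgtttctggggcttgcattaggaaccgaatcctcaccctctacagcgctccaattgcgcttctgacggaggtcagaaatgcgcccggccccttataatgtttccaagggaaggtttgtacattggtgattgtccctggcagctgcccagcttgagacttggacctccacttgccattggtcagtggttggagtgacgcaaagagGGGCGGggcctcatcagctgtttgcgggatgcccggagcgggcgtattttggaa
Bid, chr6:120916775-120917074: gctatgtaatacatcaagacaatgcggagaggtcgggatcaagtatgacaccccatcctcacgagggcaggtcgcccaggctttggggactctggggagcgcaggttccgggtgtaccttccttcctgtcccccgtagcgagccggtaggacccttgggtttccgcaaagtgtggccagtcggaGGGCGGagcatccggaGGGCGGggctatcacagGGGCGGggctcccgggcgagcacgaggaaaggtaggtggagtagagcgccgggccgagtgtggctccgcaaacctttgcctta
Bcl2, chr1:106714241-106714540: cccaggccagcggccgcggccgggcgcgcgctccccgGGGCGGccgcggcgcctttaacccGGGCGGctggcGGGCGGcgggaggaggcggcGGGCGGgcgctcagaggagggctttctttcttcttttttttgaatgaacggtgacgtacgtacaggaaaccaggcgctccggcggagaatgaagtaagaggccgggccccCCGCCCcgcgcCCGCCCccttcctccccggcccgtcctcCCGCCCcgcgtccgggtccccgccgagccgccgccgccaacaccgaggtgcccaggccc
All capitals in these windows are GC boxes. The Bcl2 window held 7 of them, the Bid window 3 and the Bmf window at chr2:118549637-118549936 had 1, while the other Bmf windows had none. No FOXO or antioxidant response element match was found in any of the 5. Among the 32851 promoter windows of the same length, 35.7% had a GC box, 3.65% a FOXO motif and 12.4% the antioxidant response element core. Of the 15 windows of 9 members (all but Pmaip1), 8 had a GC box, 1 (Bcl2l11) had a FOXO match and 1 (Bcl2l1) had the antioxidant response element core. A match describes the letters of the window and was not tested for binding.

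Levels are the log2 of the processed signal minus the 75th percentile of the same array, so that 0 is the brightness of the spot at that percentile. Probes differ in their response, so levels were compared between groups for 1 gene and never between genes. Of the 10 members, 9 were well above background on all 23 arrays. Pmaip1, the gene of the BH3-only protein NOXA, was not well above background on any of the 23 arrays and was not tested. The arrays lay on 3 slides. Position here is the last of the numbers that place an array on its slide, so arrays of the same slide could share it. DMSO, DOM and DOS arrays lay at positions 2 and 4 of the slides and MEHP, DINCH and BDB arrays at positions 1 and 3, so for the latter compounds position and treatment cannot be told apart in the comparison with DMSO. Each array had 43.4% to 52.2% of its spots well above background. Of 14 Sertoli cell markers, 6 were well above background on all 23 arrays, among them Gata4, Dhh, Kitl, Inhbb and Dmrt1. Rhox5 was on 21, Sox9 on 20 and Clu on 12, whereas Amh and Trf were on 1 each and Wt1, Fshr and Cldn11 on none. Each level is relative to its own array, so neither the number of cells nor the RNA per cell can be read from it.

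A gene was called when limma gave an adjusted p below 0.05 over all tested probes together with a change of more than 1.5-fold. With DOM, 1 of 9 tested members was called against DMSO, where 20.5% of all genes tested were called. None of 9 was called with MEHP (1.68% of all genes), with DINCH (8.26%), with BDB (0%) or with DOS (0%). At an unadjusted p below 0.05 in limma there were 4 members with DOM, 1 with DINCH, 1 with BDB, and 0 with MEHP and DOS. Over all genes at their brightest probe these shares were 47.3% with DOM, 30.8% with DINCH, 16.3% with BDB, 18.9% with MEHP and 6.34% with DOS. The p-values measure the spread between these cultures of 1 cell line. The median change of the 9 members was -0.02 on the log2 scale with DOM, beside -0.03 over all genes tested.

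**Figure D1:**
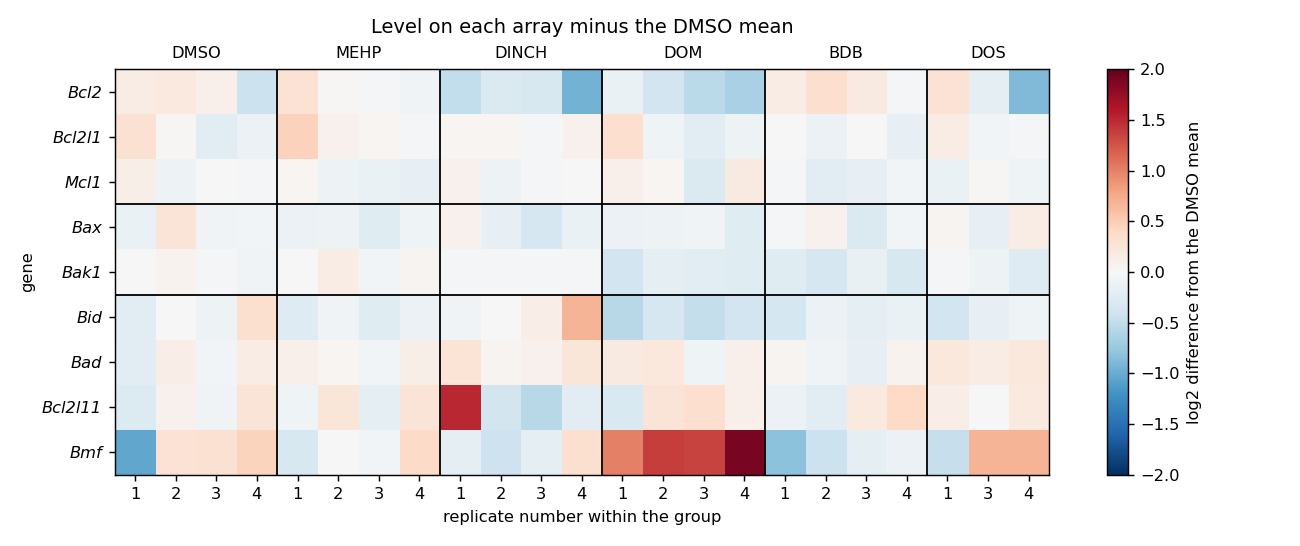
Level of the 9 detected members on each of the 23 arrays (columns, by group and replicate number), as the log2 difference from the DMSO mean of the gene (colour scale from -2 to 2); lines separate the antiapoptotic genes, the effectors and the BH3-only genes. Bmf is above the DMSO mean on the 4 DOM arrays, Bid and Bak1 are below it on all 4, and single dark cells mark the low DMSO replicate 1 for Bmf and the high DINCH replicate 1 for Bcl2l11.

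Bmf encodes a BH3-only protein that is held at the cytoskeleton by a dynein light chain and is released when cells lose attachment or are stressed. Its log2 level was -2.29, -0.97, -0.94 and -0.80 on the 4 DMSO arrays. With DOM it was -0.25, 0.13, 0.10 and 0.64. All DOM arrays were therefore above all DMSO arrays, and above every array of the other 4 compounds, whose highest value was -0.57. The mean rose from -1.25 ± 0.70 (SD, n = 4) with DMSO to 0.16 ± 0.37 (SD, n = 4) with DOM. This was a change of 1.41 on the log2 scale (SE 0.33, 95% confidence interval 0.67 to 2.15), or 2.65-fold, with an adjusted p of 0.0112 in limma.

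DMSO replicate 1 lay well below the other DMSO arrays. Without it, but with DOM replicate 1 kept, the Bmf change with DOM was 1.06 on the log2 scale, or 2.08-fold. The adjusted p was 0.00724 in limma. With all arrays but without the filter on dim probes the change stayed at 1.41. Its adjusted p was then 0.0582 in limma, so it was no longer called. Within slide 1, where DMSO replicate 1 lay, the mean of the 2 DOM arrays was 2.23 above it. The differences were 1.05 within slide 2 and 1.44 within slide 3. On each slide the DOM arrays were thus the higher ones, and with the slide as a block the change was 1.59 (adjusted p 0.00214, limma). Replicate 1, which lay on slide 1 in every group, was the lowest array of its group for Bmf in 5 of 6 groups and for Bid in 6 of 6.

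**Figure D2:**
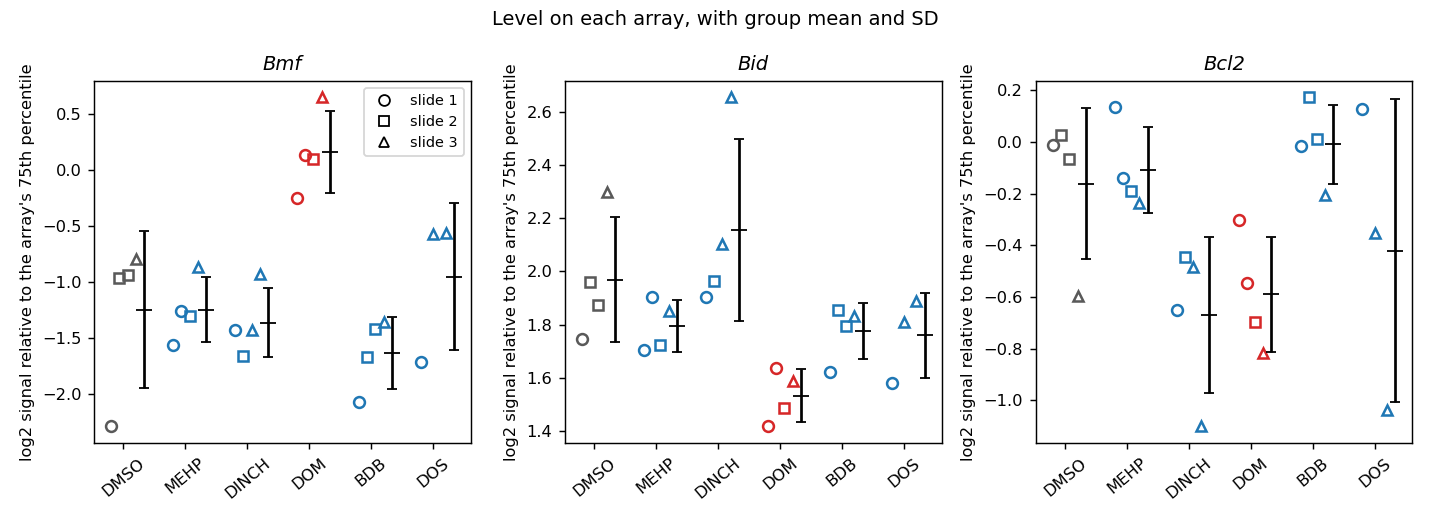
Log2 level (relative to the 75th percentile of the array) of Bmf, Bid and Bcl2 on each array, by group; the symbol gives the slide, and the bar to the right of the points is the mean with its SD (n = 4, DOS n = 3). The DOM arrays are the highest for Bmf (-0.25 to 0.64), and for Bid they lie between 1.42 and 1.64, below all DMSO arrays.

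With the other compounds Bmf was not called against DMSO, and the intervals were wide. MEHP gave -1.57, -1.26, -1.30 and -0.87, which was a change of -0.00 (95% confidence interval -0.72 to 0.72). DINCH gave -1.43, -1.67, -1.43 and -0.93, a change of -0.12 (-0.83 to 0.60). BDB gave -2.07, -1.67, -1.43 and -1.36, a change of -0.38 (-1.10 to 0.33). These arrays lay within the range of the DMSO arrays, but below the 3 DMSO arrays other than replicate 1, except for the highest arrays of MEHP and DINCH. Without DMSO replicate 1 the change was -0.35 with MEHP, -0.46 with DINCH and -0.73 with BDB, none of them called (lowest adjusted p 0.110, limma). The DOS arrays were at -1.72, -0.58 and -0.57, a change of 0.30 (-0.65 to 1.24), and the latter 2 were above all DMSO arrays. Without DMSO replicate 1 it was -0.05. These fits without DMSO replicate 1 kept replicate 1 of the compounds. Replicate 1 was the lowest Bmf array in 5 of 6 groups, so the groups were then not matched by number. With all arrays kept, the lowest adjusted p of the 4 comparisons was 0.659 in limma. For each of these compounds the interval reached past 1.5-fold, so that a change of this size was not excluded.

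Since all compounds were given at the same dose and for the same time, the 10 pairs of compounds were compared directly, with p-values adjusted over the probes of all 10 pairs together. DOM and DOS lay at other slide positions than MEHP, DINCH and BDB, so in pairs across these sets position and compound cannot be told apart. The share of all genes whose arrays do not overlap was counted against DMSO only. Between compounds, a lack of overlap therefore describes the arrays of the gene and has no share over all genes beside it. Bmf was higher with DOM than with BDB by 1.79 on the log2 scale (SE 0.21, adjusted p 0.000794, limma). The order of the mean Bmf level was DOM, DOS, MEHP, DINCH and BDB, from 0.16 down to -1.63. DOM was above DINCH by 1.52 (SE 0.21, adjusted p 0.00146, limma). It was above MEHP by 1.41 (SE 0.20, adjusted p 0.00246, limma). No pair among DOS, MEHP, DINCH and BDB was called for Bmf, although BDB was below DOS by -0.67 with the replicate number as a block (adjusted p 0.0238, limma) and by -0.60 with the slide as a block (adjusted p 0.0342).

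DOM and DOS are both dioctyl esters and differ by the unsaturated bond of the maleate core. Arrays of both lay at positions 2 and 4 only, by the position number defined above. The Bmf level was -0.25, 0.13, 0.10 and 0.64 with DOM and -1.72, -0.58 and -0.57 with DOS, without overlap. The difference was 1.11 on the log2 scale (SE 0.31, 95% confidence interval 0.40 to 1.82), or 2.16-fold, with an adjusted p of 0.0447 over the 10 pairs and 0.0389 in this comparison alone in limma. It was 1.66 within slide 1 and 1.22 within slide 3, and slide 2 held no DOS array. Without DOS replicate 1 the difference was 0.73 (adjusted p 0.0920, limma) and was not called. The call was also lost without DOM replicate 2, 3 or 4 or without DOS replicate 4. The adjusted p-values of this comparison alone were then from 0.0590 to 0.0872 in limma. With the replicate number as a block the difference was 1.12 (adjusted p 0.00922 over the 10 pairs, limma). With the slide as a block it was 1.44 (adjusted p 0.00351 over the 10 pairs, limma), and it was called with either block. Of the other 8 members none was called between DOM and DOS, where 14.7% of all genes were called after adjustment over the pairs. At an unadjusted p below 0.05 in limma there were 0 of these 8, beside 8533 of the 24128 tested probes. The differences of these 8 members ranged from -0.23 for Bid (-0.50 to 0.04) to 0.08 for Mcl1 (-0.23 to 0.38). For Bcl2 the interval was -0.75 to 0.41, and for the other 7 it lay within 1.5-fold.

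**Figure D3:**
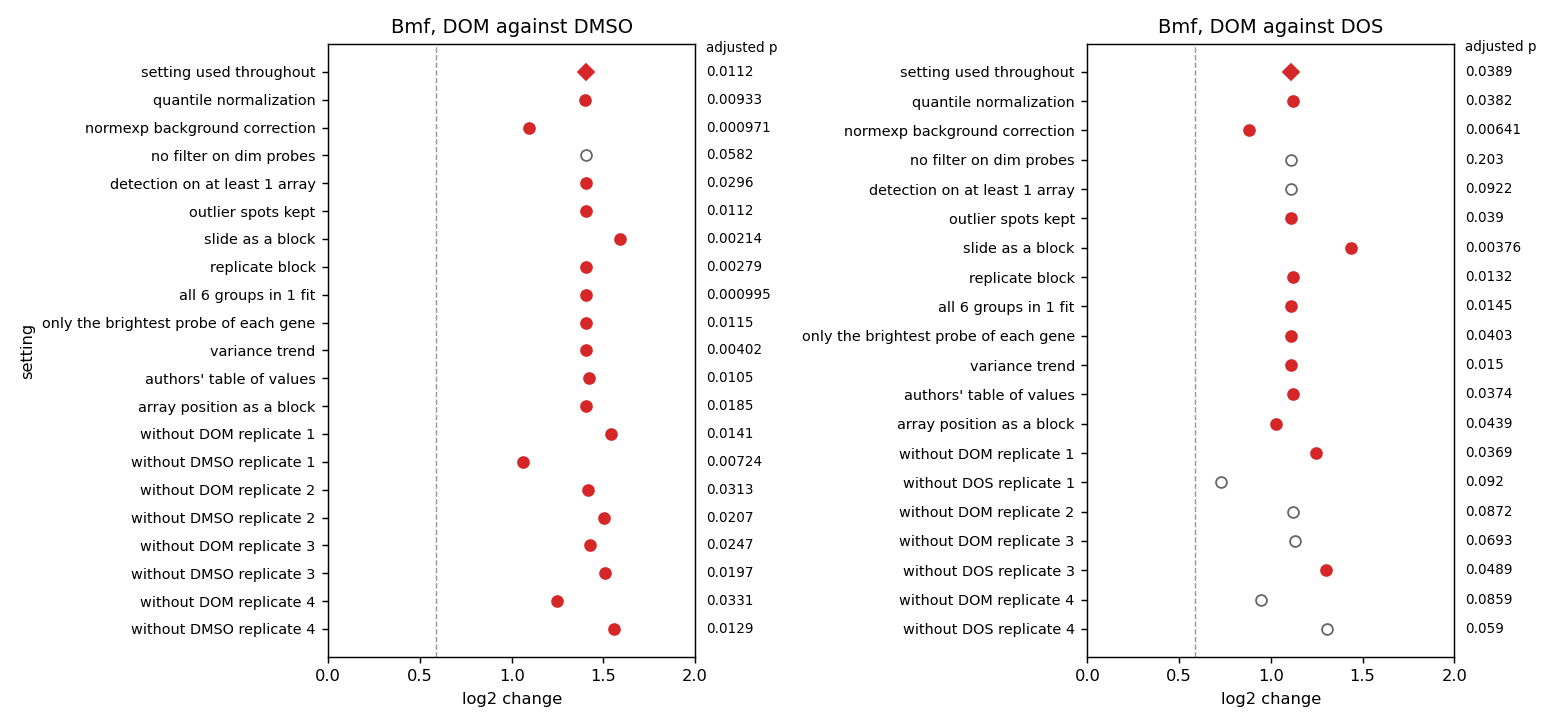
Log2 change of Bmf for DOM against DMSO (left) and DOM against DOS (right) under each setting and with each array left out; filled symbols have an adjusted p below 0.05 in limma (value at the right), and the dashed line is 1.5-fold. The change for DOM against DMSO stays between 1.06 and 1.59 and loses its call under 1 setting, whereas DOM against DOS ranges from 0.73 to 1.44 and loses its call under 2 settings and without any 1 of 5 arrays.

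Bid encodes a BH3-only protein that is cut by caspase-8 and so links death receptors to the mitochondrion. Its level was 1.75, 1.96, 1.87 and 2.30 on the DMSO arrays and 1.42, 1.64, 1.49 and 1.59 on the DOM arrays. All 4 DOM arrays were below all DMSO arrays. The difference was -0.44 on the log2 scale (SE 0.13, 95% confidence interval -0.73 to -0.14), or 1.35-fold, with an adjusted p of 0.0311 in limma. This change was below 1.5-fold and therefore not called, and 35.5% of all genes had an adjusted p below 0.05 with DOM at any fold. The adjusted p of Bid did not stay below 0.05 throughout. It was 0.0165 to 0.159 under the alternative settings and 0.0242 to 0.0673 with single arrays left out, in limma. Within slides the DOM level was lower by 0.22, 0.43 and 0.71 on slides 1, 2 and 3.

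With DINCH, Bid was at 1.90, 1.96, 2.10 and 2.65, and all of these were above all DOM arrays. The direct difference between DINCH and DOM was 0.62 (SE 0.16, 95% confidence interval 0.26 to 0.99, adjusted p 0.0312 over the 10 pairs, limma), or 1.54-fold. This call was lost with the slide as a block (0.55, adjusted p 0.0526) and without DINCH replicate 4, the highest array (0.46). It was also lost without any 1 of the 4 DOM arrays or without DINCH replicate 3, with adjusted p-values from 0.0536 to 0.0660. Against DMSO the DINCH change of Bid was 0.19 (-0.23 to 0.60) and was not called.

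Bcl2, the founding antiapoptotic member, was at -0.01, 0.03, -0.07 and -0.59 with DMSO. It was at -0.65, -0.45, -0.48 and -1.10 with DINCH and at -0.30, -0.55, -0.70 and -0.82 with DOM. In both groups 2 of 4 arrays were below all DMSO arrays, and the low DMSO replicate 4 made the groups overlap. The change was -0.51 with DINCH (95% confidence interval -0.93 to -0.09, adjusted p 0.117) and -0.43 with DOM (-0.81 to -0.05, adjusted p 0.0805) in limma, neither of them called. Without DMSO replicate 4 the change was -0.65 with DINCH (adjusted p 0.0564, limma) and -0.57 with DOM (adjusted p 0.0172, limma). The latter was just under 1.5-fold, so neither was called. These 2 fits kept replicate 4 of the compounds, and replicate 4 was the lowest Bcl2 array in 6 of 6 groups. Between arrays of the same number DINCH differed from DMSO by -0.64, -0.47, -0.42 and -0.51, and with the replicate number as a block the adjusted p was 0.0168 with DINCH and 0.0228 with DOM in limma, at unchanged sizes under 1.5-fold.

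The Bcl2 levels with BDB were -0.02, 0.17, 0.01 and -0.20. All DINCH and all DOM arrays were below all BDB arrays, but how many of all genes lacked overlap in these pairs was not counted. DINCH was below BDB by -0.66 on the log2 scale (SE 0.15, 95% confidence interval -1.01 to -0.32, adjusted p 0.0190 over the 10 pairs, limma), or 1.58-fold. DOM differed from BDB by -0.58 (adjusted p 0.0176, limma), which was just under 1.5-fold. The DINCH and BDB arrays shared slide positions, and within slides 1, 2 and 3 the difference was -0.63, -0.54 and -0.59. With the slide as a block it was -0.58 and below 1.5-fold, without DINCH replicate 4 it was -0.52, and without BDB replicate 2 it was -0.60 (adjusted p 0.0510, limma), so that in these cases it was not called. The DOS arrays spread most, at 0.13, -0.35 and -1.04, so that the order of DOS among the groups could not be resolved. With MEHP, Bcl2 was at 0.14, -0.14, -0.19 and -0.24, a change of 0.05 (-0.29 to 0.40).

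Over the 10 pairs of compounds, 6 of 90 member comparisons were called, the 4 for Bmf and the ones for Bid and Bcl2. Of all genes tested, 26.1% were called between DOM and BDB, 22.2% between DINCH and DOM, 18.6% between MEHP and DOM, 14.7% between DOM and DOS and 9.94% between DINCH and BDB. In the 5 pairs with no member called, the shares were 5.9% between DINCH and DOS, 3.48% between MEHP and DINCH, 3.22% between MEHP and BDB, 2.25% between BDB and DOS and 1.44% between MEHP and DOS. Another 5 member comparisons had an adjusted p below 0.05 but a change under 1.5-fold. These were Bcl2 between MEHP and DINCH, between MEHP and DOM and between DOM and BDB, and Bak1 between MEHP and BDB and between MEHP and DOM. The share of all genes with such an adjusted p at any fold was not counted for the pairs.

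Bak1, the effector that sits in the mitochondrial outer membrane, was somewhat lower on the DOM and BDB arrays. It was at 4.57, 4.63, 4.53 and 4.49 with DMSO, at 4.17, 4.37, 4.32 and 4.32 with DOM and at 4.32, 4.23, 4.41 and 4.23 with BDB. Both treated groups lay below all DMSO arrays. The change was -0.26 with DOM (95% confidence interval -0.46 to -0.06, adjusted p 0.0516, limma) and -0.26 with BDB (-0.45 to -0.07, adjusted p 0.197, limma), neither of them called. Under the alternative settings the DOM change was -0.26 to -0.17, with adjusted p-values from 0.00637 to 0.279 in limma, and stayed under 1.5-fold. Bmf, Bid and Bak1 were the 3 of 9 members whose DOM and DMSO arrays did not overlap, beside 39.4% of all genes. For BDB it was Bak1 alone, 1 of 9 beside 12% of all genes. For MEHP (14.4% of all genes) and DINCH (24%) it was 0 of 9.

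Bax, the cytosolic effector, stayed close to the vehicle with every compound. Its changes lay between -0.14 (DINCH) and 0.01 (DOS), and all 5 intervals lay within 1.5-fold. The DMSO arrays were at 3.91, 4.29, 3.96 and 3.97, with replicate 2 the highest.

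The antiapoptotic genes Bcl2l1 and Mcl1 also differed little from DMSO. The change of Bcl2l1 was between -0.08 with BDB and 0.14 with MEHP. That of Mcl1, whose protein is short-lived, was between -0.12 with BDB and 0.01 with DOM. For these genes all 10 intervals lay within 1.5-fold, and the second probe of each gave no call. It differed in sign from the brighter probe in 1 of 5 comparisons for each gene, at changes no larger than 0.14 in size for Bcl2l1 and 0.12 for Mcl1.

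Bad, whose BH3-only protein is held inactive by 14-3-3 proteins once phosphorylated, had changes from -0.03 (BDB) to 0.19 (DOS). Its 3 DOS arrays, at 5.08, 5.02 and 5.07, were above all DMSO arrays, which lay between 4.64 and 5.01. The change with DOS was 0.19 (95% confidence interval -0.08 to 0.46, adjusted p 0.811, limma) and was not called, and 8.14% of all genes had DOS arrays that did not overlap with DMSO. Both Bad probes had the same sign in all 5 comparisons. On the dimmer probe, however, the DOS arrays lay at 1.13 to 1.34, within the DMSO range of 1.04 to 1.35. The change there was 0.05, so the lack of overlap was seen on the brighter probe alone.

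Bcl2l11, the gene of the BH3-only protein BIM, was dim but well above background. It was at -2.44, -2.07, -2.23 and -1.90 with DMSO and at -0.66, -2.53, -2.72 and -2.38 with DINCH, where replicate 1 was far above the others. The change with DINCH was 0.09 with an interval of -0.81 to 0.99. Without DINCH replicate 1 it was -0.38 (adjusted p 0.184, limma), of the opposite sign, and it was not called either way. With the other 4 compounds the changes were between 0.05 (MEHP) and 0.10 (DOS), and these intervals lay within 1.5-fold.

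Of the 45 intervals of the 9 tested members and 5 compounds against DMSO, 34 lay entirely within a 1.5-fold change in either direction. With MEHP and BDB it was 8 of 9 members, with DOS 7, with DOM 6 and with DINCH 5. Over all genes tested the share of such intervals was 79.5% with MEHP, 80.2% with BDB, 79.2% with DOS, 48.8% with DOM and 61.9% with DINCH. Of the 11 others, 5 were those of Bmf, 3 of Bcl2, 2 of Bid and 1 of Bcl2l11.

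**Figure D4:**
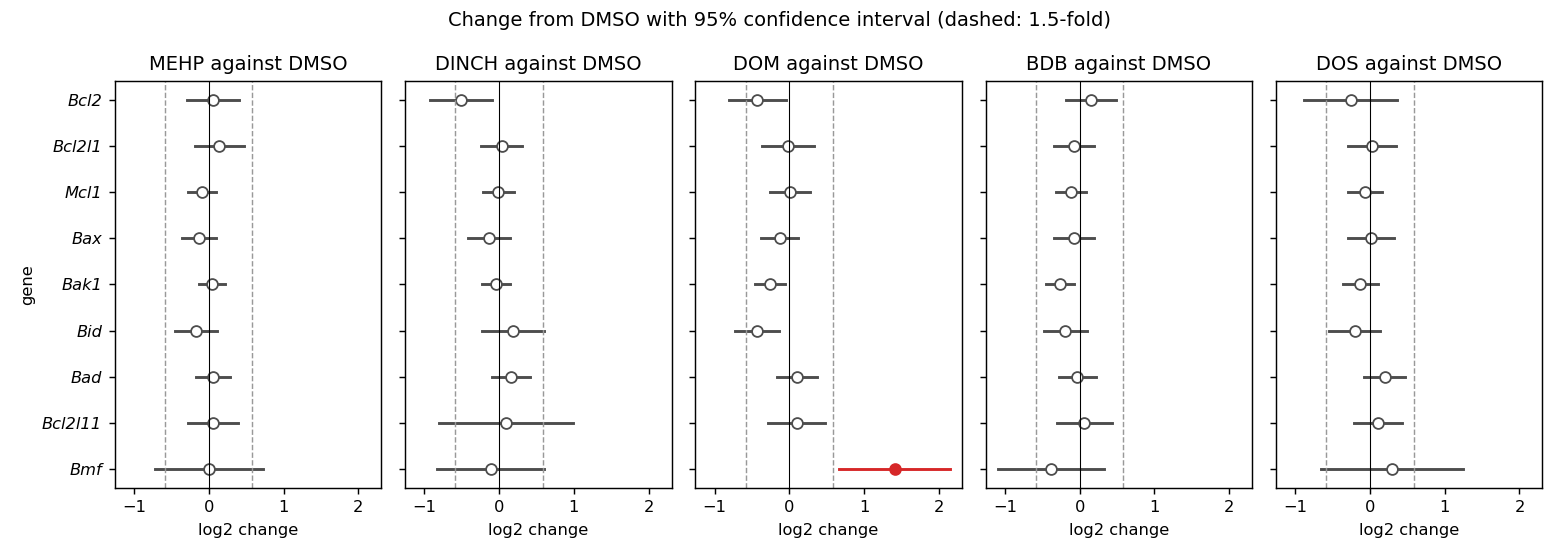
Log2 change of each detected member for each compound against DMSO (points) with its 95% confidence interval from limma (lines); the filled red point is the called change, and dashed lines mark 1.5-fold. Of the 45 intervals 34 lie between the dashed lines, and the called point is Bmf with DOM at 1.41.

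The genes around the family were counted in 6 lists of 90 genes, of which 76 were tested with each compound. With DOM 13 of 76 were called, 4 higher and 9 lower, beside 20.5% of all genes. With DINCH it was 2 of 76, beside 8.26%. With MEHP, BDB and DOS none was called in limma, beside 1.68%, 0% and 0% of all genes. At an unadjusted p below 0.05 in limma for any probe there were 18, 19 and 6 of 76 genes. Over all genes at their brightest probe these shares were 18.9%, 16.3% and 6.34%. The median change over the lists was -0.05 with DOM, beside -0.03 over all genes.

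With DOM, where 20.5% of all genes were called, 1 of 8 tested other BCL2 family genes was called. This was Bcl2l15, a less studied member, which fell by 1.23 on the log2 scale from -2.28 ± 0.25 to -3.51 ± 0.33 (SD, n = 4 each, adjusted p 0.00156, limma). The call came from its brightest probe, and its other probes were well above background on no array. Bbc3, the gene of the BH3-only protein PUMA, had a change of -0.43 with an adjusted p of 0.0214, under 1.5-fold.

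Downstream of the mitochondrion, 3 of 14 genes were called with DOM, all lower, beside 20.5% of all genes. Cycs, which encodes the cytochrome c of somatic cells, fell by 0.75 from 6.54 ± 0.15 to 5.79 ± 0.10 (SD, n = 4 each, adjusted p 0.00122, limma). Its second probe went from 3.37 to 2.81, which was under 1.5-fold. The remaining Cycs probe was well above background on no DMSO or DOM array. Aifm1, the gene of apoptosis-inducing factor, fell by 0.62 (adjusted p 0.0150). Cycs and Aifm1 also serve respiration in healthy mitochondria. The initiator Casp9 had a change of 0.38 and Apaf1, the scaffold of the apoptosome, of 0.15, neither of them called.

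Birc5 was the 1 of 7 inhibitor of apoptosis genes called with DOM, beside 20.5% of all genes. It encodes survivin, which acts in chromosome segregation as well as in caspase inhibition. Its level was 5.74 ± 0.22 with DMSO and 4.02 ± 0.52 with DOM (SD, n = 4 each), so that it fell by 1.72 on the log2 scale, or 3.28-fold (adjusted p 0.00117, limma). The other Birc5 probes gave -1.87 and -2.03. Xiap, which binds active caspases, had a change of 0.11 and was not called.

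The death receptor arm had 0 of 8 genes called with DOM in limma, beside 20.5% of all genes. At an unadjusted p below 0.05 in limma there were 3 for any probe, beside 47.3% of all genes at their brightest probe. Among binding partners and turnover factors 1 of 19 was called with DOM, the mitochondrial channel gene Vdac3, which fell by 0.61 (adjusted p 0.00525). With DINCH it was the 14-3-3 gene Ywhag, which fell by 0.80 (adjusted p 0.00669). Dynll2, the dynein light chain that binds BMF, had a change of 0.19 with DOM (adjusted p 0.156), and its second probe of -0.00.

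Upstream regulators had 7 of 20 genes called with DOM, beside 20.5% of all genes. Foxo1, a transcription factor known to act on BH3-only genes, rose by 0.90 from 2.02 ± 0.21 to 2.92 ± 0.26 (SD, n = 4 each, adjusted p 0.00282, limma), and its second probe by 0.93. Rps6ka1, a kinase of the ERK pathway that phosphorylates BAD, rose by 0.75 with DOM (adjusted p 0.00566) and by 0.75 with DINCH (adjusted p 0.0154). The stress-response factor Atf3 fell by 1.24 (adjusted p 0.00434) and Ddit3, the gene of CHOP, fell by 0.67 (adjusted p 0.0212). Of Gsk3b, a kinase that marks MCL1 for degradation, 1 of its 3 probes rose by 0.94 while the brightest had a change of 0.25 and was not called. Atf4 was called through its dimmer probe, which fell by 0.66, and the brighter probe had a change of -0.58, just under 1.5-fold. The remaining called gene was Stat5a, which rose by 0.60 (adjusted p 0.0296).

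**Figure D5:**
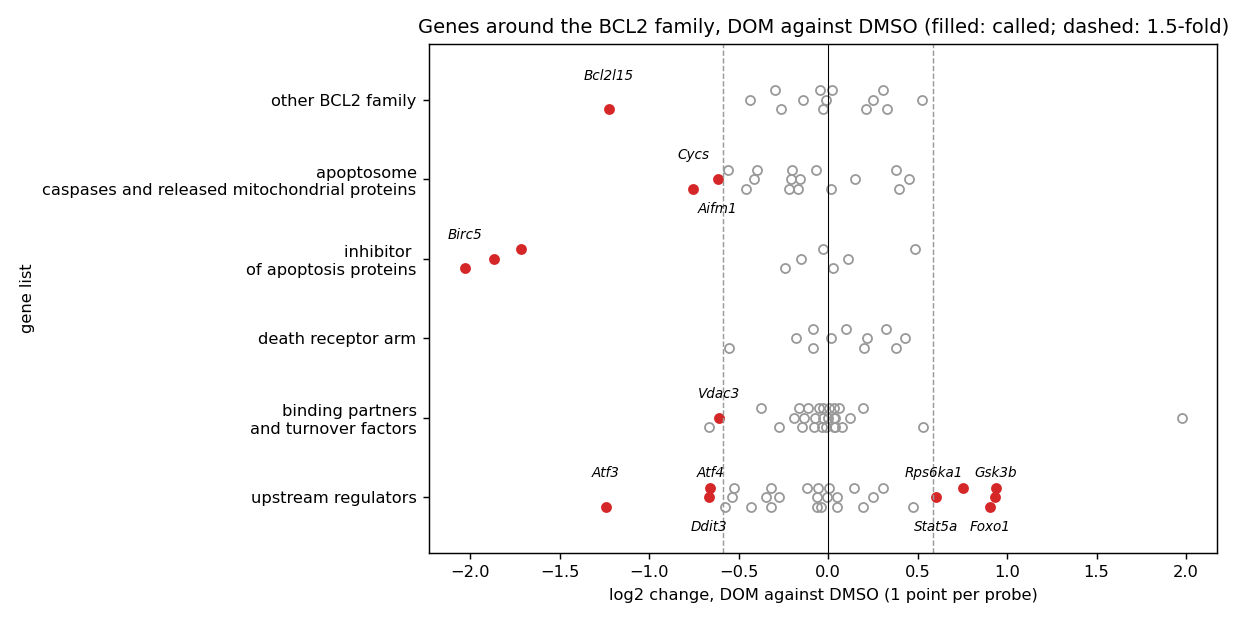
Log2 change with DOM against DMSO for the tested probes of the 6 gene lists whose genes are reported here, 1 point per probe; filled red points are called, names mark their genes and dashed lines are 1.5-fold. Birc5 is lowest with its 3 probes between -2.03 and -1.72, and Foxo1, Rps6ka1, Gsk3b and Stat5a are the called genes on the right; the open point near 2 is a probe of Ywhaq that was not called (adjusted p 0.326).

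The 3 named genes whose level followed that of Bmf most closely over the 23 arrays, among 12165 genes, were Ctnnd1 (Pearson r = 0.950), Fam102a (0.945) and Marchf8 (0.942). This is a description, because the arrays share their treatments and slides. Some cell type markers were called with DOM. The log2 of the summed signal of the 14 Sertoli cell markers, on the scale of the levels, was 3.86 to 4.83 with DMSO and 5.44 to 6.11 with DOM, where Inhbb rose by 1.61 and Sox9 fell by 0.92. The median change of the 8 tested was -0.09, with 4 of 8 above 0. That of the 5 peritubular or fibroblast markers was 7.11 to 7.61 with DMSO and 7.45 to 7.72 with DOM, with Pdgfra called higher by 0.86 and Myh11 on no array above background. Their part in the Bmf result was not tested. In the other lists the defining genes Cyp11a1, Hsd3b1 and Lhcgr of Leydig cells, Ddx4 and Dazl of germ cells, Cdh5 of endothelial cells and Adgre1 and Ptprc of macrophages were above background on none of the 23 arrays. Other genes of these lists, Cyp17a1, Prm1, Pecam1, Kdr and Csf1r, were well above background on all 23, and Star was on 12.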

How the data were processed

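Cy3-labelled RNA from every TM4 culture was put on its own array. Spot signals came from Agilent Feature Extraction 11.5.1.1 per the file headers. The deposited intensity was linear with background removed, and arrays had not been brought to a common scale. A further deposited table holds log2 values that the authors had shifted to the 75th percentile and centred on probe medians, and it served as an alternative (column medians from -0.36 to 0.18).

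For the levels, log2 of the processed signal was taken, with a floor of 1 that no spot reached, and the 75th percentile over the 59305 non-control spots was subtracted. Outlier spots, 102 to 187 on an array, were dropped, and replicate spots were averaged. The extraction software had all its measures in range on 15 of 23 arrays, and no array was left out. RefSeq accessions linked 26582 of the 55681 probes to a gene symbol. A test needed detection and a signal not under the 20th percentile on all arrays of 1 of the groups compared. limma 3.58.1 (R 4.3.3) was fitted to the compared groups alone, with Benjamini-Hochberg adjustment over all tested probes. A gene was called through any of its probes, and its value is that of the brightest. The limma fit and the call were tested on simulated data with independent noise, which held no slide or replicate effect. The design of the array uses a different build, so positions are those of the promoter table (GRCm38.p6) alone. The number of arrays limits the precision.

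All 10 members are named. From the 6 lists the called genes are named, at most the 5 with the largest change per list and compound, and for the member with the largest called change the 3 most correlated genes. Other genes of the lists, and the motifs, were chosen for their role after values were seen. The members and lists were chosen with earlier results of these data known. Probes were found for 88 of the 90 list genes. Some genes that meet the rule are counted but not reported by name here.

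Replicate numbers are shared between the groups. Subtracting the group mean from each array and correlating arrays of the same number gave 0.16 to 0.56 for DINCH, 0.31 to 0.46 for BDB and 0.25 to 0.51 for DOS. Every such correlation of these compounds was above 0.1, which for MEHP (-0.16 to 0.53) and DOM (0.06 to 0.48) was not so. The reported fits are without the block. The blocked values are given where they change a call and for some other results, and not for every adjusted p that they change.

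Alternatives tried were normexp background correction (median signal and background, offset 50), quantile normalization, no filter, detection on at least 1 array, outlier spots kept, slide, replicate number or array position as a block, all groups in 1 fit, the brightest probe only, a variance trend, the authors' table, and leaving out each array.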

Additional observations from a re-analysis of the deposited data

Results flagged for a closer look

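Of the 45 member and group combinations with 4 arrays, 4 had 1 array far from the other 3 by Dixon's criterion, which chance gives in about 5% of groups. For Bmf, DMSO replicate 1 was at -2.29, below the other DMSO arrays at -0.97 to -0.80. For Bcl2, DMSO replicate 4 was at -0.59, below the others at -0.07 to 0.03. For Bax, DMSO replicate 2 was at 4.29, above the others at 3.91 to 3.97. For Bcl2l11, DINCH replicate 1 was at -0.66, above the others at -2.72 to -2.38. The groups compared with DMSO share these control arrays.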

How the results depend on the processing

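Against DMSO the number of members called stayed at 1 for DOM and at 0 for MEHP, DINCH, BDB and DOS under every alternative, except that DOM had 0 without the filter on dim probes, where Bmf kept its change of 1.41 with an adjusted p of 0.0582. Leaving out each array gave 1 to 1 for DOM and 0 to 0 for the other compounds. Between DOM and DOS the count of 1 became 0 without this filter and with detection on at least 1 array, and it was 0 to 1 when single arrays were left out. Over the 10 pairs, the 6 calls became 3 without the filter and 3 with detection on at least 1 array, 4 with normexp background correction, and 4 to 7 with single arrays left out. Without the filter, and with detection on at least 1 array, the remaining calls were those of Bmf with DOM against MEHP, DINCH and BDB. The filter alternatives add dim probes to the fit and to the adjustment. None of 1148 recomputed single-gene values reversed a called direction, 30 lost a call, and 69 uncalled values had another sign.

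With the replicate number as a block, the members called stayed at 1 for DOM against DMSO (1.41 for Bmf, adjusted p 0.00279), at 0 for the other compounds and at 1 for DOM against DOS, and 7 calls were made over the 10 pairs. The added call was Bmf, lower with BDB than with DOS (-0.67), and the block changed no other call. With the slide as a block the calls of Bid and of Bcl2 between DINCH and BDB were lost, while Bmf between BDB and DOS (-0.60) and Bcl2 between DOM and BDB (-0.60) were gained. With the replicate block the uncalled Bcl2 changes against DMSO kept their size and had adjusted p-values of 0.0168 with DINCH and 0.0228 with DOM, below 1.5-fold. With the slide as a block they were -0.40 (adjusted p 0.134) with DINCH and -0.46 (adjusted p 0.0222) with DOM.

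Signal over background limits Pmaip1, which could not be tested, and the spread of Bmf among DMSO and DOS arrays limits its intervals.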
